A study of Mus musculus with 25 samples.

Results

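Expression of 9 genes of oligodendrocytes and their myelin was examined in RNA from sorted neuronal nuclei of the mouse hippocampus. The genes were taken by name from the 24411 genes listed in each of 3 gene tables. Mbp, Cnp, Mog, Mag and Mobp encode proteins of the myelin sheath or its membrane, and Olig1, Olig2, Sox10 and St18 encode transcription factors.

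Oligodendrocytes are glial cells that wrap axons in myelin, a stack of compacted membrane that speeds conduction and feeds the axon. They arise from oligodendrocyte precursor cells, in which Olig1, Olig2 and Sox10 are already made, and switch on the myelin genes late, as they mature. Neurons make no myelin, and these genes are commonly used as markers of oligodendrocytes. The Mbp gene also gives rise to golli transcripts from an upstream start, which some neurons make, and the tables count all Mbp transcripts as 1 gene. NeuN, the nuclear protein encoded by Rbfox3, marks most mature neurons.

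The study compared hippocampal neuronal nuclei in 3 experiments with 25 libraries, all from male C57BL/6 mice, sorted by flow cytometry as positive for both Hoechst and NeuN. The aging experiment held 3 libraries of young wild-type mice (3 months) and 2 of aged wild-type mice (18 months). The overexpression experiment held 7 libraries of young mice (3 months) labelled Ftl1 OE, injected into the hippocampus with virus carrying Ftl1 (ferritin light chain, an iron store protein) under the neuron-specific synapsin-1 promoter, and 5 of GFP controls. The knockdown experiment held 4 libraries of aged mice (18 months) labelled Ftl1 KD, which received virus with a short hairpin RNA against Ftl1 and no neuron-specific promoter named, and 4 of controls with a hairpin against luciferase. Virus was injected on both sides into CA1 and the dentate gyrus, and no gate on the virus was named for the sort.

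Total reads per library were 7969282 to 9537872 in aging, 9943996 to 17034325 in overexpression and 48902 to 358560 in knockdown. In knockdown, the ribosomal precursor transcript Rn45s took 31.9 to 55.3% of the reads of controls and 30.3 to 34.5% of those labelled Ftl1 KD. Values below are the normalized counts of the deposited tables, in which every value came out as a whole number of reads. Each table was normalized on its own, so levels set side by side across experiments are not on one scale. A gene was tested, with limma, if its normalized counts averaged 10 or more. The fit was on log2(normalized count + 1), with Benjamini-Hochberg adjustment over all genes tested, and all fold changes are on that scale.

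By western blot of hippocampus, the study reported more FTL1 protein after overexpression and less after knockdown. Ftl1 RNA in these nuclei did not follow the labels of the viral experiments. In knockdown it was 49.1, 45.6, 56.2 and 24.2 in controls against 117, 106, 109 and 140 in the libraries labelled Ftl1 KD, higher without overlap (log2 fold change 1.47, limma adjusted p = 2.2e-04). In overexpression it was 7315, 4580, 7415 and 9953 in controls 9901, 9904, 9925 and 9926, and 28309 in control 9905 alone. Libraries labelled Ftl1 OE had 4737 to 7663 (log2 fold change -0.67 over all libraries, limma adjusted p = 0.681). In aging Ftl1 was 1685, 1925 and 2141 in young and 4247 and 4272 in aged mice (log2 fold change 1.16, limma adjusted p = 0.397). Directions in the viral experiments are therefore given by the libraries' labels only.

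Rbfox3 was read in all 25 libraries, at normalized counts of 1762 to 2960 in aging, 2573 to 5301 in overexpression and 2.94 to 15.1 in knockdown. Mbp, whose protein glues the cytoplasmic faces of myelin together, was also read in all 25. For each Rbfox3 read there were 0.659 to 1.72 Mbp reads in aging, 3.39 to 12.3 in overexpression and 1.2 to 11 in knockdown libraries. These ratios are of reads in one library and do not depend on its scaling. In aging they were 0.898 to 1.72 in young and 0.659 and 0.830 in aged mice. The ages did not overlap, as held for 25.0% of all pairs of genes tested there. Rbfox3 itself was 1762 to 1807 in young and 1880 and 2960 in aged mice, also without overlap, against 24.7% of all genes. In bulk RNA of this kind, fewer nuclei or fragments of a cell type and less RNA from each cannot be told apart.

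The 9 genes differed widely in level once their lengths were taken into account. Per kilobase of annotated exon, the mean of the 5 overexpression controls was 2728 for Mbp, 1469 for Cnp and 711 for Olig1. Mog and Mag followed at 288 and 243 per kilobase, then Mobp at 127, Sox10 at 95.4, St18 at 59.3 and Olig2 at 14.7. In young mice of the aging experiment the per-kilobase means ran from 276 for Mbp and 171 for Cnp, through 73.7 for Mog, 70.4 for St18 and 63.4 for Mag, to 37.0 for Olig1, 29.8 for Mobp, 7.78 for Sox10 and 0.117 for Olig2. Mbp and Cnp thus came first and Olig2 last in both. Neighbours in these orders overlapped between libraries, apart from St18 and Olig2 in the overexpression controls, and Mobp with Sox10 and Sox10 with Olig2 in young mice.

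Olig1 and Olig2 are close paralogs, basic helix-loop-helix factors whose genes lie next to each other. In GRCm38 (mm10) Olig2 spans 91225457 to 91228677 and Olig1 spans 91269772 to 91271933 on chromosome 16, both on the plus strand and 41094 bases apart. Over all libraries of an experiment, Olig1 exceeded Olig2 per kilobase of exon by 99.7-fold in aging, 29.3-fold in overexpression and 9.54-fold in knockdown. The value in aging rests on 4 Olig2 reads in 5 libraries, and is 327 without aged replicate 3, which held 3 of them, and 57.4 without young replicate 1. Olig1 is crossed on the other strand by the annotated noncoding gene Gm15966, Cnp by Dnajc7, Mbp by the pseudogene Rpl21-ps8 and Mog by the small RNA gene Gm22388, and Mobp shares its strand with Gm38642. Since the sources differ on whether strand was kept, reads of such pairs cannot be assigned with certainty.

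Promoter sequence was looked up for the 9 genes in RefSeq (GRCm38.p6, from 250 bases before to 50 after the annotated start), and 5 had an entry, namely Cnp, Mag, Mobp, Mog and Olig2. The sequence ACAAAG, or CTTTGT on the other strand, was searched because it is a core word read by Sox family factors, of which Sox10 is one. It occurred in 18.7% of all 32851 promoters of that length. The Mobp window held 6 copies, as many as any promoter had, and 11 promoters (0.0335%) held 4 or more. The Cnp window held 1 copy, and 2 of the 3 Mag windows, which overlap each other, held the same 1 copy. Mog and Olig2 held none, which says only that these letters are not in those windows. A related word, ACAATG, or CATTGT on the other strand, was in 12.6% of all promoters, and of the 5 genes' windows in that of Olig2, with 1 copy. Cnp (chr11:100574689-100574988) and Mobp (chr9:120149492-120149791), both on the plus strand, are shown to set 1 copy against 6, 5′ to 3′ with the word in capitals. A match is a description of sequence and was not tested for binding.
Cnp: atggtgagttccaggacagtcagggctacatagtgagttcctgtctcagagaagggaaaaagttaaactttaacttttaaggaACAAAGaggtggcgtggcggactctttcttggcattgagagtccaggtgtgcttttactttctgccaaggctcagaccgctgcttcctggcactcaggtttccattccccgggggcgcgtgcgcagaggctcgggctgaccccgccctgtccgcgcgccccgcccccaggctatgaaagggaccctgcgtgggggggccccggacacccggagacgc
Mobp: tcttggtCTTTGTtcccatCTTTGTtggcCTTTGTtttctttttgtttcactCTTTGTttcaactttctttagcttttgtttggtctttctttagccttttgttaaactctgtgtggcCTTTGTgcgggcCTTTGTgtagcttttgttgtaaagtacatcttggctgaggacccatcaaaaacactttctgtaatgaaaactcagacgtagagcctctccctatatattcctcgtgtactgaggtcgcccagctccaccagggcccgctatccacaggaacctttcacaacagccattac

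With age, none of the 9 genes passed the test, and 7 of the 8 that could be tested had a lower fitted mean in aged mice. The background gave 0% of 13712 genes called, so these libraries called nothing at all (smallest limma adjusted p = 0.117). At an unadjusted p of 0.05 or less there was 1 of the 8 genes, against 7.94% of all genes. The median log2 fold change of the 8 was -0.87, against -0.025 over all genes tested. It was -0.42 without aged replicate 2 and -1.65 without aged replicate 3. None of the 8 separated the groups without overlap, which 24.7% of all genes did, and with 3 against 2 libraries the exact two-sided permutation test cannot go below 0.2.

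Mbp was 1588, 3111 and 2314 in young replicates 1, 2 and 3, and 1952 and 1560 in aged replicates 2 and 3. Both aged values lay below the young median, and aged replicate 3 was the lowest library by a narrow margin (log2 fold change -0.37 ± 0.32 SE, limma adjusted p = 0.780). Cnp, an enzyme and structural protein of the non-compacted myelin channels, was 404, 784 and 677 in young and 408 and 376 in aged mice. Young replicate 1 was as low as the aged libraries for Cnp (log2 fold change -0.61 ± 0.36 SE, limma adjusted p = 0.682).

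Mog, a protein of the outermost myelin surface, was 62.2, 192 and 122 in young mice and 0 and 91.9 in aged mice. The 0 in aged replicate 2 allows up to 2.96 normalized counts, and it carried the fitted difference, which was -3.57 ± 1.48 SE with all libraries and -0.30 without that one (limma unadjusted p = 0.0322, adjusted p = 0.603 with all). Mag, an adhesion molecule facing the axon, was 99.6, 344 and 331 in young and 107 and 666 in aged mice. Aged replicate 3 was the highest library, aged replicate 2 and young replicate 1 were the lowest, and the sign of the Mag difference (0.25) turned to -1.07 without aged replicate 3.

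Mobp, a small basic protein of compact myelin, was 134, 340 and 138 in young and 38.5 and 179 in aged mice. Olig1 was 132, 48.8 and 59.5 in young and 7.91 and 62.5 in aged mice. Sox10, the factor that turns on many myelin genes, was 3.11, 47.7 and 20.4 in young and 0 and 9.19 in aged mice. For all 3 genes aged replicate 2 was low, and aged replicate 3 lay inside the young range. St18, a zinc finger factor, was 421, 620 and 324 in young and 356 and 289 in aged mice, and Olig2 had reads only in young replicate 3 (1 read) and aged replicate 3 (3 reads), so it was not tested.

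The aged pair did not share 1 pattern. The mean of the 9 genes on the log2 scale was 4.81 in aged replicate 2 and 6.89 in aged replicate 3, against 6.31, 7.35 and 6.96 in the young libraries. A list of 40 further oligodendrocyte genes had 34 tested, 24 of them lower and 10 higher in aged mice with a median log2 fold change of -0.51, and none was called. The astrocyte list had 10 of 12 lower (median -0.47) and the neuron list 6 of 15 lower (median 0.11), none called. The summed astrocyte list was 6135 to 9563 in young and 4691 and 7927 in aged mice, and its part in the result was not tested.

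**Figure D1:**
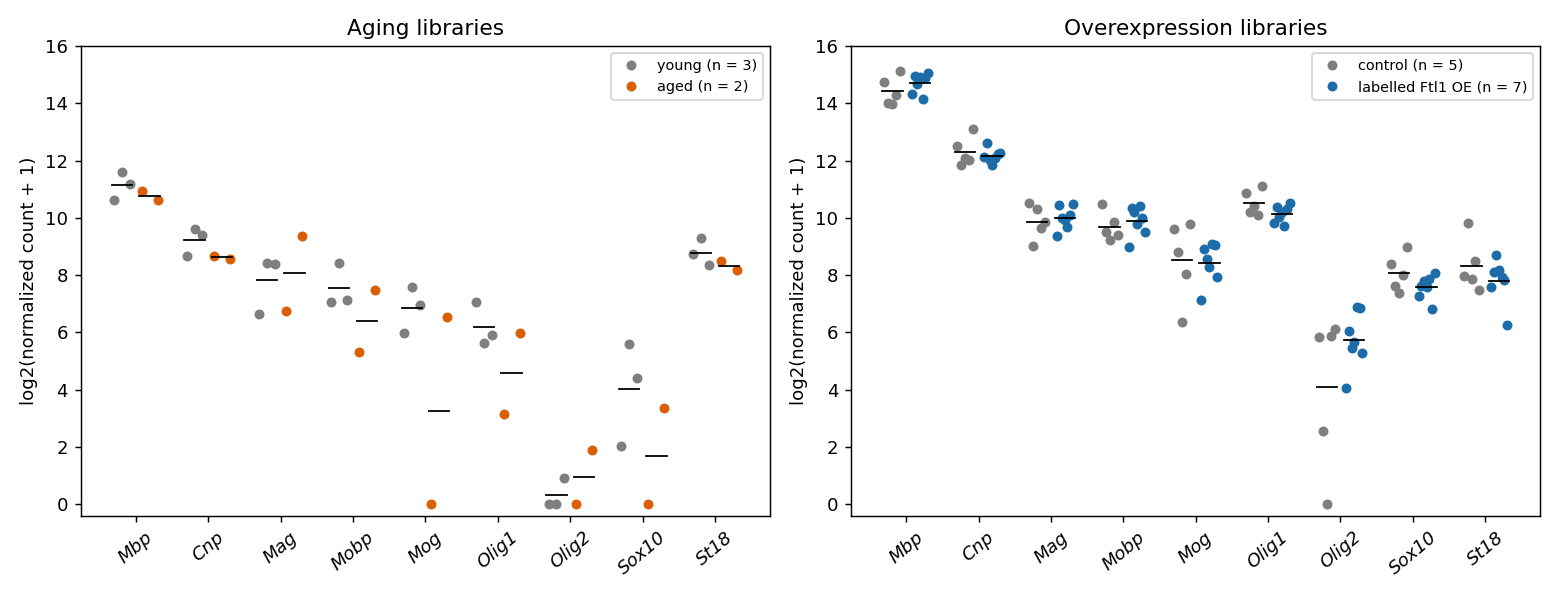
Level of each gene as log2(normalized count + 1) in the aging libraries (left) and the overexpression libraries (right), with 1 point per library and a bar at the group mean. Every gene has overlapping groups in both panels, Mog in aged mice has 1 point at 0, and Olig2 lies lowest.

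In the overexpression experiment no gene of the 9 passed the test either, with 4 fitted higher and 5 lower in the libraries labelled Ftl1 OE. The background was 0% of 14099 genes called (smallest limma adjusted p = 0.499). None of the 9 reached an unadjusted p of 0.05, against 7.26% of all genes, and none separated the groups, against 0.582% of all genes. The median log2 fold change of the 9 was -0.096, against 0.095 over all genes tested. The exact two-sided permutation test could reach 0.0025 with 5 against 7 libraries.

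Mbp was 27571, 16662, 16017, 19830 and 35426 in the controls. In the libraries labelled Ftl1 OE it ran from 17976 over a median of 30372 to 34083, with values of 20623, 31982, 25927 and 30975 between. The groups overlapped over most of their range (log2 fold change 0.28 ± 0.26 SE, limma adjusted p = 0.779). Cnp was 3674 to 8742 with a median of 4327 in controls, and 3658 to 6188 with a median of 4477 in libraries labelled Ftl1 OE. The highest Cnp value, in control 9926, was also the library with the highest Mbp (log2 fold change -0.14 ± 0.22 SE).

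Mog ran from 81.1 over 449 to 884 in controls and from 139 over 379 to 549 in libraries labelled Ftl1 OE (lowest, median and highest). Mag ran from 514 over 923 to 1452 and from 656 over 1022 to 1415 in the same order. Mobp ran from 598 over 717 to 1425 and from 509 over 1009 to 1350. For all 3 genes the groups lay almost on top of each other, with log2 fold changes of -0.10, 0.13 and 0.20.

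Of the transcription factors, Olig1 had the smallest unadjusted p of the 9 genes (limma, 0.0905, adjusted 0.698). It was 1869, 1173, 1360, 1088 and 2193 in controls and 904, 1314, 1052, 1186, 847, 1258 and 1458 in libraries labelled Ftl1 OE (log2 fold change -0.39 ± 0.22 SE, exact permutation p = 0.101). Sox10 ran from 164 over 255 to 509 in controls and from 110 over 196 to 269 in libraries labelled Ftl1 OE, and its groups overlapped. St18 ran from 179 over 246 to 907 and from 75.2 over 242 to 413.

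Olig2 was sparse and uneven. It was 55.9, 4.92, 0, 57.3 and 68.4 in controls, where the 0 in control 9905 allows up to 4.06 normalized counts. In libraries labelled Ftl1 OE it was 15.5, 64.9, 43.1, 49.8, 117, 113 and 38.0. The fitted log2 fold change was 1.67 ± 1.04 SE (limma adjusted p = 0.717), and 0.65 without control 9905.

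Other glial lists had fitted medians in both directions. Of 12 precursor genes 11 were higher (median log2 fold change 0.46) and of 12 astrocyte genes 9 were higher (0.29), none called. Of 13 microglia genes, 10 were fitted lower in libraries labelled Ftl1 OE, 5 of them at an unadjusted p of 0.05 or less and none called, with summed levels of 3369 to 8161 in controls and 2066 to 3573 in libraries labelled Ftl1 OE. C1qb, a complement subunit, had the highest mean of that list and was 1182 ± 684 in controls (SD, n = 5) and 538 ± 144 in libraries labelled Ftl1 OE (SD, n = 7, limma adjusted p = 0.520). Of the 40 further oligodendrocyte genes 24 were higher and 16 lower, none called, with a median log2 fold change of 0.14.

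Across the 12 overexpression libraries the genes rose and fell together in part. Of the 36 pairs of the 9 genes, 29 had a positive Pearson r on the log2 scale. The median r was 0.33 (Spearman rho 0.35), against a median r of 0.011 over all pairs of genes tested. An r of 0.5 or more was reached by 11 pairs (30.6%), against 15.1% of the 99383851 pairs of all genes tested. No pair passed after adjustment over the 36 (permutation test with 100000 relabellings, smallest adjusted p = 0.173 for r and 0.272 for rho). An unadjusted p of 0.05 was reached by 9 pairs for r and 6 for rho. For this p and for a positive r, no share over all pairs of genes is given. All 36 share the same libraries, depths and scaling.

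The highest r were 0.75 for Cnp and Olig1 (rho 0.61, permutation p = 0.0052) and 0.72 for Mog and Olig2 (rho 0.74, permutation p = 0.0112), with adjusted p of 0.173 for both. Without the 2 libraries farthest from the median of the pair's first gene (Cnp and Mog in turn) these were 0.57 and 0.22. Over the 7 libraries labelled Ftl1 OE they were 0.42 and 0.95. The paralogs Olig1 and Olig2 showed no joint movement (r = 0.023, rho = -0.0070, permutation p = 0.942). Sox10 went with Cnp (r = 0.61, permutation p = 0.0384) and Olig1 (r = 0.62, permutation p = 0.0332), both with an adjusted p of 0.173, with r of 0.14 with Mag and 0.12 with Mobp. Without the 2 libraries farthest in Cnp, the r of Sox10 with Cnp was 0.29. Without the 2 farthest in Olig1, its r with Olig1 was -0.057. Over the 7 libraries labelled Ftl1 OE these were -0.052 and 0.046.

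St18 differed in sign from the others over all 12 libraries. It had a negative r with 6 of its 8 partners, with a median of -0.25 and a lowest value of -0.58 with Mag (rho -0.29, permutation p = 0.0477, adjusted p = 0.191). Without the 2 libraries farthest in St18 its r with Mag was 0.12. With the 2 farthest in each pair's first gene left out, its median r was -0.054. Among the 28 pairs without St18, 27 were positive with a median r of 0.44, against 0.33 over all 36 pairs. St18 was set apart on these same r values, so a higher median follows from the choice. St18 was highest in control 9904, at 907 where the other controls had 179 to 356, while Cnp and Mag in that library were the lowest of the controls.

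The size of the joint movement varied with the libraries included. Ftl1 OE library 9895 and control 9905 had the lowest means of the 9 genes on the log2 scale, at 8.96 and 8.62 where the others had 9.26 to 10.1. Without 9895 alone the median r over the 36 pairs was 0.26, and without control 9905 alone 0.34. Without the 2 libraries farthest from the median of each pair's first gene, chosen anew per pair, it was 0.18. With each group centred on its own mean the median r was 0.44, and over the 7 libraries labelled Ftl1 OE alone it was 0.20. The mean level of the 9 genes had an r of 0.52 with total reads over the 12 libraries.

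**Figure D2:**
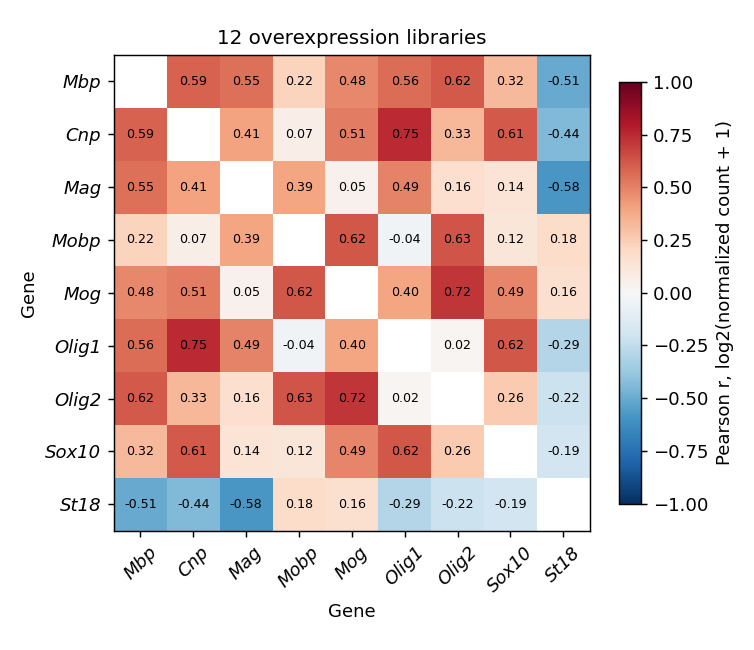
Pearson r of log2(normalized count + 1) between each pair of genes over the 12 overexpression libraries (colour and number, axes by gene). The St18 row and column are mostly negative, and Cnp with Olig1 (0.75) and Mog with Olig2 (0.72) are highest.

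Other cell type lists moved with the 9 genes over the same libraries. The mean level of the 9 genes had an r of 0.71 with the further oligodendrocyte genes, 0.67 with astrocyte genes, 0.58 with precursor genes, 0.56 with endothelial genes, 0.28 with microglia genes, 0.15 with pericyte genes and -0.52 with neuron genes. Without the 2 low libraries these were 0.35, 0.078, 0.014, 0.12, 0.17, 0.18 and -0.43. All of these lists share depth and scaling, and their part in the pattern was not tested. For a ranking of 14090 other genes, the members were averaged after scaling each to its own mean and SD. The 8 most like that mean were Kif19a (r = 0.91), Brsk1 (0.88), Rgs3 (0.88), Galnt6 (0.87), Adamts15 (0.87), Lyz2 (0.86), Gm11681 (0.84) and Caskin2 (0.84). High r follow from picking the top of so many genes on the same libraries. Their means were 10.7 to 337 normalized counts. All but Rgs3 and Lyz2 had a lowest value of 0, and r without the 2 low libraries is not given for them.

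In the knockdown experiment Mbp and Cnp were called lower in the libraries labelled Ftl1 KD, Cnp with overlapping groups. Olig1 was fitted higher and missed the threshold. Only 3 of the 9 genes had a mean of at least 10 and were tested, against 1460 genes in all. Of these 3, 2 were called lower and 0 higher, where the background was 13.7% called lower (200 genes) and 10.5% called higher (154 genes). With median centring the split of all calls was 161 lower and 197 higher, and that of the 3 genes 1 lower (Mbp) and 1 higher (Olig1). With edgeR, with DESeq2 and with a pseudocount of 5, 2 of the 3 were called lower and 1 higher. These libraries are far shallower than those of the other experiments, with 68092 to 358560 reads in controls and 48902 to 97104 in libraries labelled Ftl1 KD, so the reads behind each value are given with it.

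Mbp was 36.8, 47.2, 41.2 and 22.2 in controls 1, 2, 3 and 5, from 39, 117, 22 and 53 reads. It was 9.59, 13.5, 10.9 and 4.41 in Ftl1 KD libraries 1, 3, 4 and 5, from 10, 15, 6 and 3 reads. The groups did not overlap, which held with the treated group below controls for 11.9% of all genes tested. Mbp had a log2 fold change of -1.87 ± 0.35 SE (limma adjusted p = 4.3e-04) and an exact permutation p of 0.0286, the smallest that 4 against 4 allows. Mbp reads per Rbfox3 read did overlap, at 1.51 to 11 in controls and 1.2 to 2.5 in libraries labelled Ftl1 KD, where Rbfox3, at 2 to 35 reads a library and too low to test, was 10.8 ± 5.30 and 6.45 ± 3.57 (SD, n = 4 each). The Mbp change was called under all 16 alternatives that tested it, with adjusted p from 7.8e-05 to 0.00886. A filter at a mean of 50 left Mbp, Cnp and Olig1 untested.

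Cnp was 16.99, 29.4, 18.7 and 5.43 in controls, from 18, 73, 10 and 13 reads. In libraries labelled Ftl1 KD it was 5.75, 7.22, 0 and 5.88, from 6, 8, 0 and 4 reads, and the 0 allows up to 5.47 normalized counts. Control 5 lay among the Ftl1 KD values, so the groups overlapped. The log2 fold change was -1.88 ± 0.70 SE with a limma adjusted p of 0.0484, and the call was lost under 8 of 16 alternatives. The exact permutation p for Cnp was 0.114. Without Ftl1 KD replicate 4, which held the 0, the fold change was -1.16 with an adjusted p of 0.101. Without control 1, 2 or 3 the adjusted p was 0.106, 0.208 and 0.0939, and with the replicate number as a block the fold change was -0.86 with an adjusted p of 0.459.

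Olig1 was 7.55, 4.44, 14.98 and 1.25 in controls, from 8, 11, 8 and 3 reads. In libraries labelled Ftl1 KD it was 14.4, 12.6, 23.7 and 14.7, from 15, 14, 13 and 10 reads. Control 3 overlapped the upper group, and the log2 fold change of 1.40 ± 0.53 SE had a limma adjusted p of 0.0524 (exact permutation p = 0.114). It passed the threshold under 6 of 16 alternatives, among them edgeR (adjusted p = 0.0247), DESeq2 (0.0460) and leaving out control 1 (adjusted p = 0.0477) or control 3 (0.0128), with adjusted p over all alternatives from 0.0128 to 0.220.

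The other 6 genes were at a few reads. Summed over the 4 libraries of each group, Mag had 21 reads in controls and 1 in libraries labelled Ftl1 KD, Mobp 15 and 1, Mog 11 and 1, St18 4 and 1, Sox10 4 and 1, and Olig2 3 and 7. All reads together, those of Rn45s included, came to 848691 in controls and 302723 in libraries labelled Ftl1 KD. With no filter on the mean, none of the 6 passed (limma adjusted p from 0.363 for Mag to 0.954 for Sox10). Mag had the smallest unadjusted p of the 6 (limma, 0.0455). At these counts the lack of a call does not show that a gene was unchanged. With that setting 9 genes entered and the median log2 fold change of the list was -0.55, against -1.87 over the 3 tested.

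**Figure D3:**
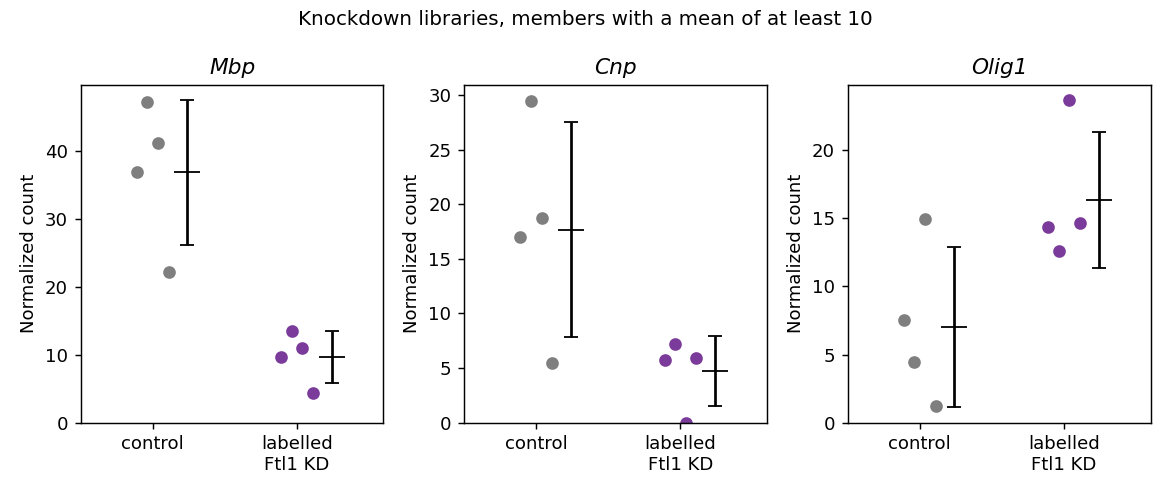
Normalized counts of the 3 tested genes in the 8 knockdown libraries, with 1 point per library and the mean ± SD of each group (n = 4) beside the points. Mbp separates the groups, Cnp and Olig1 overlap in 1 control each, and Cnp has 1 point at 0.

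Summed levels of other cell type lists also differed between these groups. The 40 further oligodendrocyte genes summed to 56.9 to 107 in controls and 39.3 to 50.5 in libraries labelled Ftl1 KD, without overlap, but only 2 of them were deep enough to test and neither was called. Microglia genes summed to 8.49 to 24.2 and 1.47 to 12.5 in the same order, overlapping, with none tested.

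The summed precursor and astrocyte lists differed between the groups mainly through 1 gene each. The precursor list summed to 30.3 to 36.8 in controls and 57.3 to 68.5 in libraries labelled Ftl1 KD, of which Ptprz1, a receptor phosphatase that astrocytes make too, rose from 11.9 ± 3.28 to 41.9 ± 6.46 (SD, n = 4 each, limma adjusted p = 2.4e-04), while Tnr was 14.3 ± 5.37 and 8.59 ± 5.90 (log2 fold change -0.76, not called) and Cspg5 was 5.03 and 3.65 on average, below the mean needed for a test. Without Ptprz1, an alternative chosen after seeing the data, the other 11 precursor genes summed to 16.99 to 23.0 and 14.7 to 28.8. The astrocyte list summed to 48.7 to 84.0 and 81.2 to 92.9, with the glutamate transporter Slc1a3 raised from 5.56 ± 2.64 to 25.3 ± 6.39 (SD, n = 4 each, limma adjusted p = 5.4e-04). Aldoc, the most abundant astrocyte gene here, was 22.8 and 18.3 on average (log2 fold change -0.27) and Slc1a2 was 10.03 and 10.06 (0.052), neither called. Without Slc1a3, chosen in the same way, the other 11 astrocyte genes summed to 44.9 to 74.6 and 60.2 to 66.2. Neuron genes summed to 526.2 to 669 and 563 to 628, and of 11 tested 3 were called higher and 4 lower. The part of these lists, of depth and of the Rn45s share in the fall of Mbp and Cnp was not tested.

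**Figure D4:**
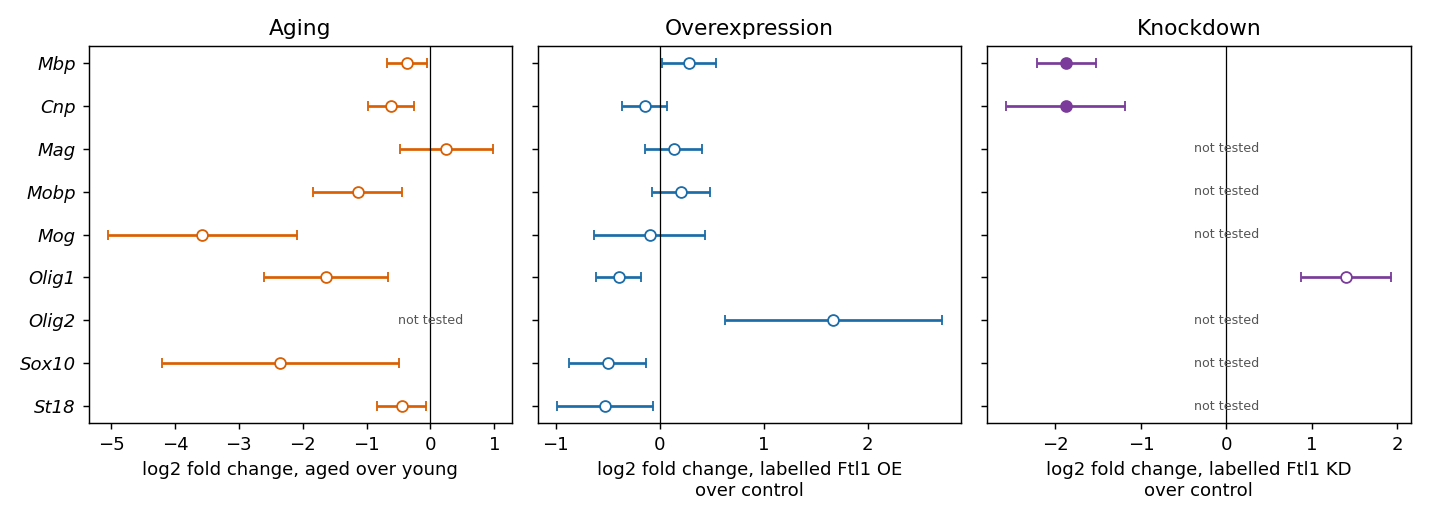
Fitted log2 fold change ± SE of each gene in the 3 experiments (second group over control, on log2(normalized count + 1)), with filled points for an adjusted p of 0.05 or less and text where a gene was below the mean of 10. Only Mbp and Cnp in knockdown are filled, and the axes differ in range.

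Set against each other within a library, Olig1 and Mbp separated the groups in both viral experiments, in opposite directions by label. This ratio was picked after its values were seen, so it is described with no test. In overexpression, Olig1 reads per Mbp read were 0.0678, 0.0704, 0.0849, 0.0549 and 0.0619 in controls. In libraries labelled Ftl1 OE they were 0.0438, 0.0411, 0.0406, 0.0383, 0.0471, 0.0414 and 0.0428, all below every control. Of the 36 pairs of the 9 genes it was the 1 ratio without overlap, against 0.550% of all pairs of genes tested.

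In knockdown, Olig1 reads per Mbp read were 0.205, 0.0940, 0.364 and 0.0566 in controls and 1.5, 0.933, 2.17 and 3.33 in libraries labelled Ftl1 KD. Every library labelled Ftl1 KD lay above every control. Of the 3 ratios that could be formed 2 did not overlap (those of Olig1 with Mbp and with Cnp), against 23.0% of all pairs of genes tested there. In aging the ratio was 0.0830, 0.0157 and 0.0257 in young and 0.00405 and 0.0400 in aged mice, with overlap, and 5 of 28 pairs did not overlap, against 25.0% of all pairs.

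On the log2(normalized count + 1) scale, Mbp exceeded Olig1 by 3.89 ± 0.23 in overexpression controls (SD, n = 5) and by 4.57 ± 0.095 in libraries labelled Ftl1 OE (SD, n = 7). In knockdown the same difference was 2.51 ± 0.91 in controls and -0.76 ± 0.70 in libraries labelled Ftl1 KD (SD, n = 4 each). Leaving out any 1 library kept the change of Olig1 over Mbp between -0.75 and -0.59 in overexpression and between 2.99 and 3.64 in knockdown. The control groups of these experiments differ in age, virus and depth, and the 2 changes were not compared by a test.

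**Figure D5:**
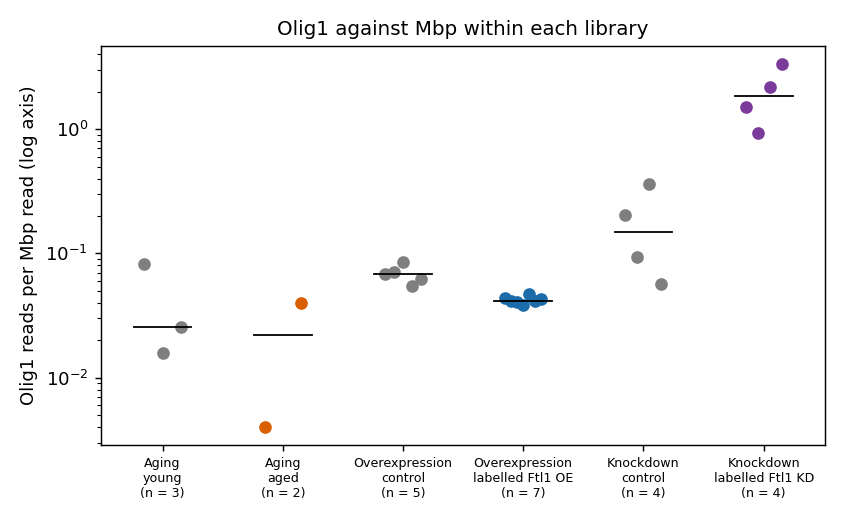
Olig1 reads per Mbp read in each of the 25 libraries (log axis), grouped by experiment and label, with a line at each group's median. Libraries labelled Ftl1 OE (0.0383 to 0.0471) lie below their controls, those labelled Ftl1 KD (0.933 to 3.33) lie above theirs, and the aging groups overlap.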

How the data were processed

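Neuronal nuclei of hippocampus were sequenced in 25 libraries. The study's methods describe Smart-seq2 and Nextera libraries, and the labels a strand-specific poly(A) kit. The submitters' processing notes name STAR, RSEM and DESeq2 with the build mm10, and no versions. The authors deposited 3 tables of counts normalized by size factors, a signal per gene that is comparable within a table only. Dividing each column by its smallest step gave whole reads for 100% of values (tolerance 0.01). Each table also holds the authors' fold changes and p-values, which were not used. Every per-sample column was used.

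Groups came from the labels. Genes with a mean of at least 10 were fitted with limma 3.58.1 (trend, R 4.3.3) on log2(value + 1), with Benjamini-Hochberg adjustment over all genes tested. A call needed an adjusted p of 0.05 or less, with a further limit of 0.5 on the size of the log2 fold change in aging. Exact permutation tests were two-sided. The alternatives were edgeR 4.0.16 and DESeq2 1.42.0 on the recovered reads, other pseudocounts, filters and scalings, each library left out, and the replicate number as a block. The fits were tested on simulated data with 200 genes changed 4-fold. There limma recovered 55% of them in aging, 61% in overexpression and 94.5% in knockdown, and 5.2%, 3.9% and 2.1% of its calls were on unchanged genes. DESeq2 recovered 61.5% in aging and 71% in overexpression, with 28.1% and 21.1% of its calls on unchanged genes. Where the labels do not tie libraries to separate mice, p-values measure only the spread between these libraries. The limit given for a count of 0 is 3 reads and covers counting error only. No pair of libraries within a group agreed within sampling noise.

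The genes named are the 9 members, Ftl1, Rbfox3, up to 3 genes per marker list with the highest mean, and the 8 genes most correlated with the members' mean. The members and lists were chosen with earlier results of these data known. Positions are from GENCODE M21, and promoters from RefSeq.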

Additional observations from a re-analysis of the deposited data

Results flagged for a closer look

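St18 in overexpression control 9904 had a normalized count of 907, and the other 4 controls had 179 to 356. The gap to the nearest control was 0.757 of the group's whole range, above the limit of 0.710 for 5 samples. It was the 1 value past that limit in 24 such tests, and chance passes about 1 in 20.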

How the results depend on the processing

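Of the single genes' fold changes, 108 of 111 alternatives in aging, 175 of 180 in overexpression and 34 of 48 in knockdown kept their direction and their side of the threshold. In aging, Mag (0.25) turned to -1.07 without aged replicate 3 (1.56 without aged replicate 2), and to -0.34 without young replicate 1 and with the replicate block. In overexpression Mog (-0.10) turned to 0.12 without Ftl1 OE replicate 9895, 0.18 without control 9901 and 0.22 without control 9926, Mag (0.13) to -0.080 without control 9904, and Cnp (-0.14) to 0.055 without control 9926. None of these was called, and leaving out other libraries took Mog to -0.64, Mag to 0.29 and Cnp to -0.26. No gene of the 9 was called in aging or overexpression under any alternative run, but DESeq2 gave St18, Mog, Olig2 and Sox10 no adjusted p in overexpression, and a mean of at least 50 left Sox10 untested in aging.

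DESeq2 called 138 genes in aging and 101 in overexpression, where limma and edgeR called 0, and leaving out control 9925 gave 1 (range 0 to 1 over libraries). At an unadjusted p of 0.05 limma had 1089 and 1023. In knockdown 354 genes were called, 54 with a mean of at least 50 (which left none of the 9 to test) and 235 to 439 with 1 library left out, the lowest without control 5. Of the 9 genes, 1 was called (Mbp) with a pseudocount of 0.5 and with TMM scaling, 3 (Mbp and Cnp lower, Olig1 higher) with edgeR, DESeq2 or a pseudocount of 5, and 1 to 2 with a library left out. Their median log2 fold change of -1.87 became -1.18 with a pseudocount of 5, -0.55 with no filter, and -2.09 to -1.16 with a library left out, the smallest without Ftl1 KD replicate 4.

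With the replicate block the knockdown gave 173 genes, 1 of the 9 (Mbp) and a median of -0.86. Same-numbered libraries did not deviate together (r of -0.054 and 0.024 in aging, and -0.052 to -0.020 in knockdown), so the numbers were not taken as pairs. Overexpression libraries share no numbers. Without the 2 libraries farthest in each pair's first gene, the median r of the pairs fell from 0.33 to 0.18. Without Ftl1 OE library 9895 and control 9905, r of the mean level with further oligodendrocyte genes fell to 0.35. It fell to 0.014 with precursor genes, 0.078 with astrocyte genes and 0.12 with endothelial genes. The cause of these changes was not tested. Depth limits the knockdown most, where 6 of the 9 genes had at most 21 reads per group.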
